A study of Mus musculus with 6 samples.

Results

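The 9 genes followed here make or instruct the fat cell: the transcription factors Pparg, Cebpa and Cebpb, the secreted adipokines Adipoq, Lep, Retn and Cfd, the lipid carrier Fabp4 and the adiponectin receptor Adipor2. The members and the gene lists below were chosen by name, with earlier results of these data known. Shares over all genes set beside their counts are therefore not a test. Each member was read from the brightest of the probe sets annotated to that gene alone, by their means over the 6 arrays. A probe set was found for 8 of the 9 genes, by 13 probe sets in all, out of 18193 genes with a named probe set. Cfd, which encodes adipsin, had no probe set listed under its name and was not analysed here. RNA came from whole mammary glands of virgin female mice, 4 months old, of the FVB/N strain. The groups were 3 wild-type (WT) samples and 3 samples of Cav-3 knockout (KO) mice, which lack caveolin-3, the caveola coat protein of muscle. The labels give neither the mouse or gland behind each sample nor the stage of the oestrous cycle. The p-values therefore measure only the spread between these samples, which may be technical.

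The mammary epithelium of a virgin mouse lies in a pad of white fat, so a whole-gland sample holds adipocytes beside ducts. As background, Cebpb acts early when a precursor commits to the fat lineage, and Pparg with Cebpa then switches on the adipocyte programme and keeps it on. Fat cells in turn secrete adiponectin, leptin, resistin and adipsin, hormones and proteases that reach muscle, liver, brain and the neighbouring epithelium. In bulk samples of this kind, fewer fat cells and less RNA per fat cell cannot be told apart.

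Pparg, Cebpa, Adipoq and Retn, 4 of the 8 measured genes, were lower in knockout by limma with Benjamini-Hochberg adjustment over all 45037 probe sets (threshold 0.05), and 0 were higher. Of all 18193 genes, 8.51% were lower and 7.65% higher by the same rule. The members were bright, with means at percentiles 87.7 to 99.7 of all probe sets. With dim probe sets left out, 5 members were lower and 0 higher, against 13.6% and 12.7% of 11689 genes. At a threshold of 0.01 the lower members were 2, Pparg and Retn, against 2.31% of all genes, and at 0.1 they were 7, against 12.7%. At an unadjusted p under 0.05, 7 members were lower and 0 higher, against 17.3% and 16.3% of all genes. The groups did not overlap, with knockout lower, for 6 members, against 19.8% of all genes. The median log2 difference (knockout minus wild type) of the 8 genes was −0.55, against −0.01 over all genes. The mean of the 8 genes was 11.40, 11.55 and 11.70 on the log2 scale in WT 1 to 3 and 11.20, 10.84 and 10.83 in KO 1 to 3. Without WT 1, WT 3, KO 2 or KO 3 the count of lower members was 2 each time, against 5.33%, 4.45%, 8.04% and 3.33% of all genes in the same fits. Without KO 1 it was 6, against 6.89%.

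Arrays of the same genotype correlated over all probe sets at 0.990 to 0.995 and arrays of different genotype at 0.977 to 0.987. The probe set of Cav3 read 4.79, 5.02 and 4.74 in WT 1 to 3 and 4.76, 4.83 and 4.72 in KO 1 to 3, so the groups overlapped. Its means of 4.85 in wild type and 4.77 in knockout lay within the 2.04 to 6.16 of Y-linked probe sets in these female mice. At that level a flat reading does not show that Cav3 RNA was unchanged. The labels also do not place the probe set inside or outside the deleted stretch, so it did not check the genotypes.

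The promoters of the members are shown because the members are linked by the factors C/EBP and PPAR-gamma, and because the gene Pparg has several start sites that its probe set does not tell apart. The sequences are from RefSeq, build GRCm38.p6, and hold the 250 bases before an annotated start, 5′ to 3′; 8 of the 9 members had 1 or more entries, 10 windows in all. Capitals mark matches, on either strand, to the C/EBP motif TTGCNNAA, the nuclear receptor core AGGTCA, the CCAAT box or the TATA box TATAAA. The 4 windows printed lie on the plus strand: the Pparg window, upstream of the third annotated start, at chr6:115421816-115422065, the Lep window at chr6:29059971-29060220, the Cebpa window at chr7:35119043-35119292 and the Adipoq window at chr16:23146286-23146535.
Pparg: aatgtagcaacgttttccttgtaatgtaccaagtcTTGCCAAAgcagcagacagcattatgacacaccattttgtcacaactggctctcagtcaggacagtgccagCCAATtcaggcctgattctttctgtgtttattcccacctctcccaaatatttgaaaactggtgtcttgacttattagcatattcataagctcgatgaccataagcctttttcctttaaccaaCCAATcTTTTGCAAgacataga
Lep: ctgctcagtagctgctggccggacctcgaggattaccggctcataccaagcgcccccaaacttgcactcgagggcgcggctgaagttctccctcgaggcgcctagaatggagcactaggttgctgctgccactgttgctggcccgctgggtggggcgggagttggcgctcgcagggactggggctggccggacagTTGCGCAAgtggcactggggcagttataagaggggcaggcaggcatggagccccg
Cebpa: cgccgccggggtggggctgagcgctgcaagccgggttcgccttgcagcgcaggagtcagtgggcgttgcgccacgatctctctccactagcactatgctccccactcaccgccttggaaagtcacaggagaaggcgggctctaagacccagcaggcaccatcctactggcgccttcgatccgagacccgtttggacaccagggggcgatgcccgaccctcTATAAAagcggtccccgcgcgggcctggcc
Adipoq: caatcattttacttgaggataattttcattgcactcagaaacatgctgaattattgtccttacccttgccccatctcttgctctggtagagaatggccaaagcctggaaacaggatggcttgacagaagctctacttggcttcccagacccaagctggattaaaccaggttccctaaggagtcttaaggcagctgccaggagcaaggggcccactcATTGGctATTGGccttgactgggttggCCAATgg

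Of all 32851 promoter windows of the same length, 9.56% held TTGCNNAA. Among the members' 10 windows it occurred in that of the third Pparg start, with 2 matches, and in that of Lep, with 1. The Lep match was the full palindrome TTGCGCAA, 55 to 48 bases before the start, a form held by 0.164% of all windows. The Pparg matches lay 215 to 208 and 16 to 9 bases before the third start. The core AGGTCA, found in 14% of windows, lay 28 to 23 bases before the first Pparg start and 9 to 4 bases before the second. Adipoq held 3 CCAAT boxes, a motif of 33.8% of windows, and Cebpa a TATA box 30 to 25 bases before its start, a motif of 12.4%. None of the matches overlap each other. A match describes these letters and does not show that a factor binds there.

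Pparg, the nuclear receptor that drives fat cell formation, was lower on every knockout array. It read 10.48, 10.69 and 10.86 in WT 1 to 3 and 9.74, 9.49 and 9.48 in KO 1 to 3. The lowest wild-type value lay 0.75 above the highest knockout value. Wild type averaged 10.68 ± 0.19 (SD, n = 3) and knockout 9.57 ± 0.15, and Pparg fell by 1.11 ± 0.13 (SE) on the log2 scale, 2.16-fold (95% interval −1.40 to −0.82, limma adjusted p = 0.0028). Leaving out any 1 array gave differences from −1.21 to −1.02 and adjusted p up to 0.0171.

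Cebpa, the partner that sustains Pparg and makes fat cells insulin-responsive, was also lower, with a smaller gap. It read 12.49, 12.20 and 12.52 in WT 1 to 3 and 12.06, 11.49 and 11.65 in KO 1 to 3. KO 1 lay nearest to wild type, 0.14 below the lowest of its arrays. Cebpa fell by 0.67 ± 0.16 (SE), 1.59-fold (adjusted p = 0.0338, limma). The call was lost without WT 1, WT 3, KO 2 or KO 3 (adjusted p = 0.102, 0.113, 0.0636 and 0.116).

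Cebpb, the early factor of the cascade, which is also active in epithelium and immune cells, was the 1 member whose knockout mean lay above wild type. Its brighter probe set read 9.77, 10.12 and 10.19 in WT 1 to 3 and 10.34, 10.34 and 10.04 in KO 1 to 3, so the groups overlapped. The difference of 0.21 ± 0.14 (SE) did not pass (adjusted p = 0.382, 95% interval −0.11 to 0.54), and without WT 1 it was 0.09. The dimmer probe set read 5.81, 6.09 and 6.12 against 6.34, 6.52 and 6.29, without overlap, and differed by 0.38 ± 0.12 (adjusted p = 0.0769).

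**Figure D1:**
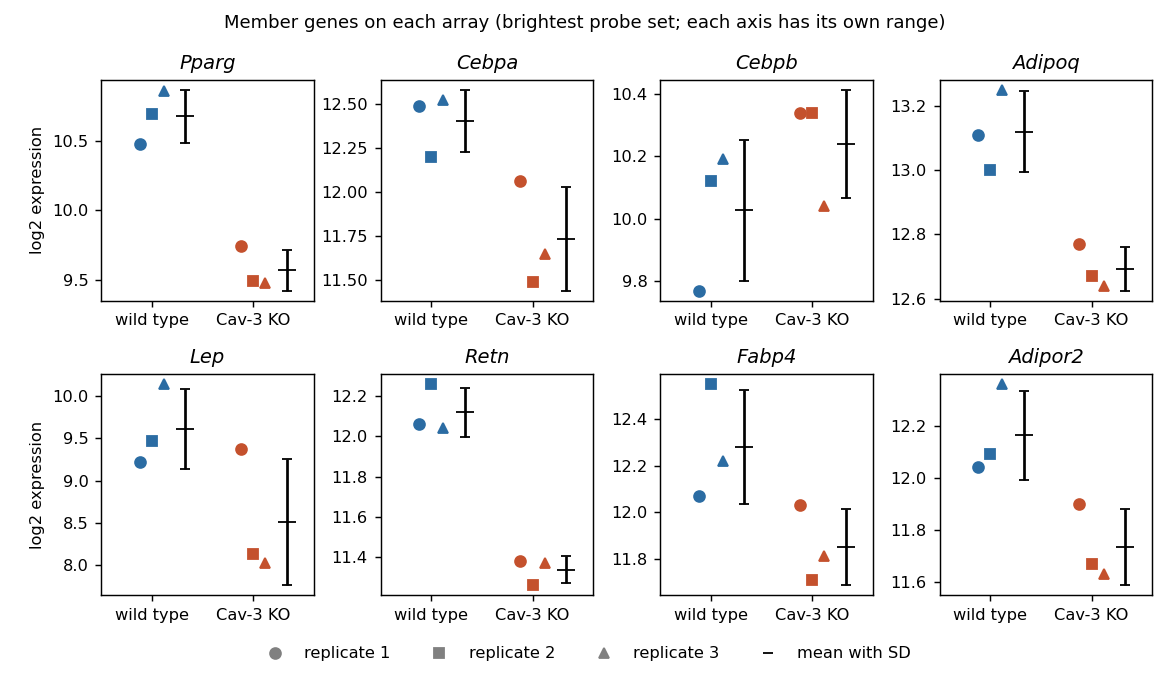
Log2 expression of the 8 measured members on each array (points by replicate number, blue wild type, red Cav-3 knockout; bars are mean with SD, n = 3), each panel with its own axis range. Pparg and Retn show a clear gap between the groups, while Lep and Cebpb overlap.

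Adipoq encodes adiponectin, the insulin-sensitising hormone that fat cells secrete in large amounts. It read 13.11, 13.0 and 13.25 in WT 1 to 3 and 12.77, 12.67 and 12.64 in KO 1 to 3. All knockout arrays lay below all wild-type arrays, by at least 0.23. Adipoq fell by 0.43 ± 0.10 (SE), 1.35-fold (limma adjusted p = 0.0281). Its mean lay at percentile 99.7 of all probe sets, the highest of the members. The call was lost without WT 1, WT 3, KO 2 or KO 3 (adjusted p = 0.0784, 0.0944, 0.0517 and 0.0971).

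Retn encodes resistin, an adipokine that in mice comes mainly from fat cells and opposes insulin action. It read 12.06, 12.26 and 12.04 in WT 1 to 3 and 11.38, 11.26 and 11.37 in KO 1 to 3. The groups were 0.66 apart, and the 3 knockout arrays lay within an SD of 0.06. Retn fell by 0.78 ± 0.10 (SE), 1.72-fold (limma adjusted p = 0.00375). With any 1 array left out the adjusted p stayed between 0.00746 and 0.0193.

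Lep encodes leptin, the hormone by which fat stores restrain appetite. It was the most variable member, with a span of 2.11 over the 6 arrays. It read 9.22, 9.47 and 10.14 in WT 1 to 3 and 9.37, 8.13 and 8.03 in KO 1 to 3. KO 1 lay within the wild-type range, while KO 2 and KO 3 lay more than 1 log2 unit below it. The difference of −1.10 ± 0.37 (SE) was as large as that of Pparg but did not pass (limma adjusted p = 0.0988, 95% interval −1.96 to −0.23). Without KO 1 it was −1.53 (adjusted p = 0.0177). With the mean of the skeletal muscle markers as a covariate it was −1.51 (adjusted p = 0.0241). Lep passed in only these 2 of the 15 alternatives of the fit. Leaving out WT 3, KO 2 or KO 3 gave smaller differences of −0.83, −0.91 and −0.86 (limma adjusted p = 0.267, 0.199 and 0.278).

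Fabp4, the cytosolic fatty acid carrier of adipocytes and macrophages, was read by 4 probe sets, none of which passed. The brightest read 12.07, 12.55 and 12.22 in WT 1 to 3 and 12.03, 11.71 and 11.81 in KO 1 to 3. The groups were only 0.04 apart there, and the difference was −0.43 ± 0.14 (limma adjusted p = 0.0954, 95% interval −0.77 to −0.10). The others differed by −0.36, −0.43 and −0.01 (adjusted p = 0.114, 0.277 and 0.982), each with overlapping groups. The probe set at −0.01 had a 95% interval of −0.52 to 0.49 and is the brightest of those whose ID does not mark possible matches to several transcripts.

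Adipor2, a receptor through which adiponectin acts on lipid oxidation, gave a different call by probe set. The brighter one read 12.04, 12.09 and 12.36 in WT 1 to 3 and 11.90, 11.67 and 11.63 in KO 1 to 3, without overlap. Its difference of −0.43 ± 0.12 did not pass (limma adjusted p = 0.0574), and its ID marks possible matches to several transcripts. The dimmer one read 9.42, 9.54 and 9.64 against 8.87, 8.54 and 8.71, and fell by 0.83 ± 0.11, 1.78-fold (adjusted p = 0.00507). Without KO 1 the brighter one gave −0.51 (adjusted p = 0.0499). The mean of both gave −0.63 (adjusted p = 0.0128).

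**Figure D2:**
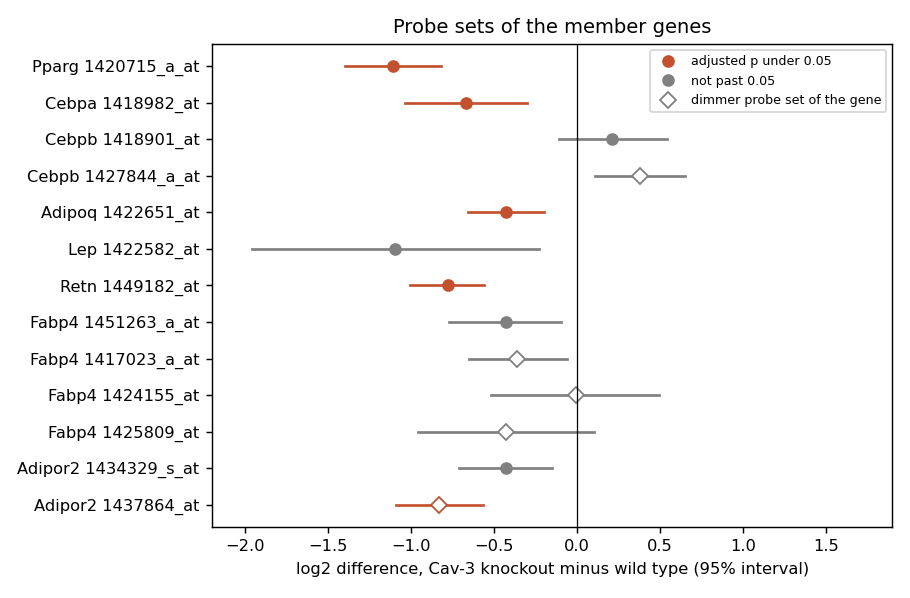
Log2 difference, Cav-3 knockout minus wild type, of all 13 probe sets of the 8 measured members (point or diamond) with its 95% interval; red marks adjusted p under 0.05 and open diamonds the dimmer probe sets of a gene. Pparg, Cebpa, Adipoq, Retn and the dimmer Adipor2 set pass below 0, and both Cebpb sets lie above 0.

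The members were then set against the rest of the fat cell on the same arrays. Of 17 measured white adipocyte markers 11 were lower and 0 higher (14 lower and 0 higher at an unadjusted p under 0.05), with a median difference of −0.66 and a range from −1.5 for Slc2a4, the insulin-responsive glucose transporter, to 0.30 for Pck1, which did not pass. Their mean was 11.32, 11.49 and 11.73 in WT 1 to 3 and 10.97, 10.75 and 10.73 in KO 1 to 3, 0.69 lower in knockout. For Pparg and for Lep, 3 of the 17 markers had a lower difference, whereas for Adipoq, Fabp4 and Adipor2 12 did, and for Cebpb 16.

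Subtracting that marker mean from each member, array by array, gave relative differences in both directions. The value of Pparg was −0.84, −0.80 and −0.86 in WT 1 to 3 and −1.23, −1.26 and −1.26 in KO 1 to 3. Relative to the markers Pparg was therefore 0.42 lower in knockout (−0.83 ± 0.03 against −1.25 ± 0.02, SD, n = 3), with no overlap. The exact two-sided permutation test gave p = 0.1, the smallest that 3 against 3 arrays allow. Adipoq was higher by 0.26 on this relative scale (1.61 ± 0.16 against 1.87 ± 0.06), as was Adipor2 (0.65 ± 0.06 against 0.91 ± 0.01), both without overlap and at the same exact p of 0.1. With the mean of both Adipor2 probe sets its relative difference was 0.04. Cebpb was higher by 0.91 (−1.49 ± 0.10 against −0.58 ± 0.15, exact p = 0.1). Before the subtraction it differed by 0.21 with overlapping groups, and the marker mean by −0.69. On this scale an unchanged gene would be higher by as much as the marker mean fell. Cebpa, Retn, Lep and Fabp4 overlapped, with relative differences of 0.02, −0.09, −0.41 and 0.26 (exact p = 0.9, 0.6, 0.3 and 0.3). These 8 p-values cannot pass after adjustment, since the smallest possible is 0.1.

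**Figure D3:**
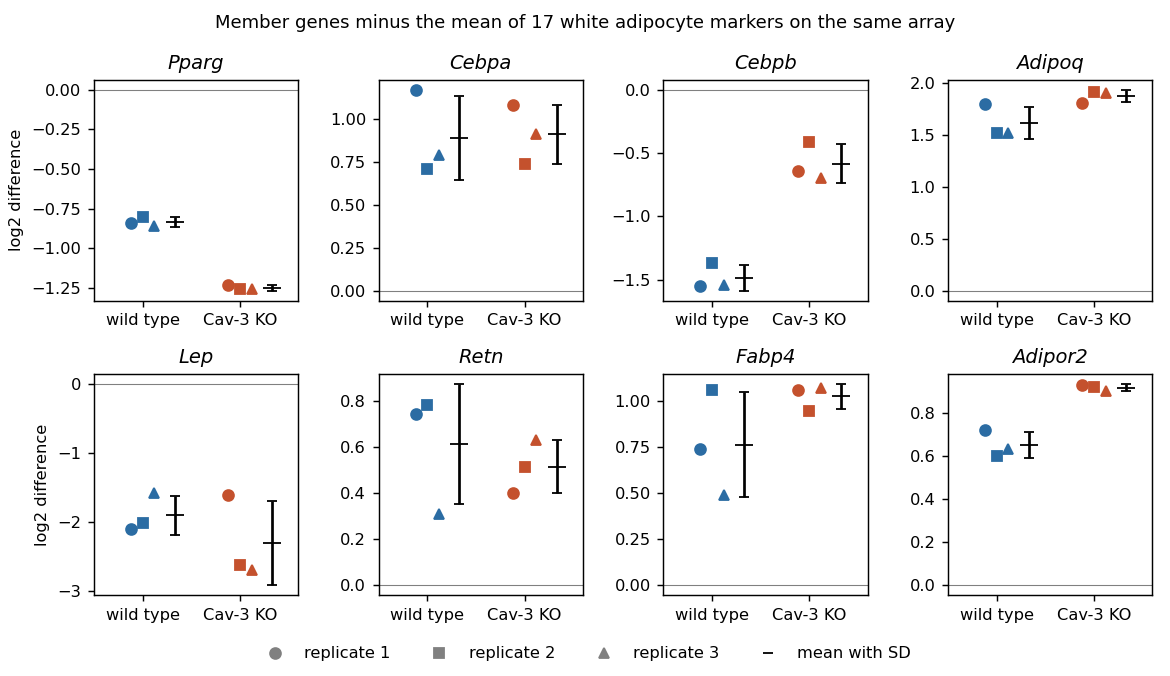
Log2 value of each member minus the mean of the 17 white adipocyte markers on the same array (points by replicate number, blue wild type, red knockout; bars are mean with SD, n = 3; the grey line is 0). Pparg lies lower and Cebpb, Adipoq and Adipor2 lie higher in all 3 knockout arrays than in any wild-type array. The marker mean itself was lower in knockout, so an unchanged gene would lie higher there on this scale.

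Markers of other cells moved as well, and their part in the members' differences was not tested. Of all genes, 8.51% were lower and 7.65% higher by limma, and 17.3% and 16.3% at an unadjusted p under 0.05. The mean of 14 brown adipocyte markers was 7.80, 7.69 and 8.76 in WT 1 to 3 and 6.79, 7.03 and 6.81 in KO 1 to 3, with 6 lower and 0 higher (10 lower and 0 higher at an unadjusted p under 0.05). Luminal epithelial markers were higher in 10 of 15 and lower in 2, the hormone receptor gene Esr1 and its partner Foxa1, and their means ran from 9.19 to 9.71 in wild type and from 10.25 to 10.50 in knockout. Basal epithelial markers were higher in 9 of 12 and lower in 0 (10 higher and 1 lower unadjusted), with means of 8.60 to 8.71 against 9.29 to 9.37. Lymphocyte markers were lower in 6 of 10 and higher in 0 (10 and 0 unadjusted), with means of 7.73 to 8.11 against 7.15 to 7.35. The marker means of preadipocytes and fibroblasts, macrophages and endothelium overlapped between the groups and differed by −0.10, −0.04 and −0.08. Within those lists 3 of 15, 1 of 14 and 2 of 12 markers were lower and 0, 1 and 1 higher by limma, and at an unadjusted p under 0.05 the counts were 6, 4 and 3 lower and 1, 1 and 1 higher. Skeletal muscle markers varied most, at 7.59, 8.63 and 5.37 in WT 1 to 3 and 5.02, 6.32 and 6.88 in KO 1 to 3, with 0 of 18 past limma's threshold in either direction and 0 at an unadjusted p under 0.05.

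Genes known as PPAR-gamma targets in adipocytes were lower in 12 of 25 measured cases and higher in 1, against 8.51% and 7.65% of all genes. Their median difference was −0.60. This list shares 13 genes with the white adipocyte markers, among them Slc2a4, Gpd1 and Agpat2. It shares 3 more, Cidea, Fabp3 and Ucp1, with the brown adipocyte markers, so its counts are not separate from those of the markers. Slc2a4 fell by 1.5 ± 0.18 (SE), Gpd1, which supplies the glycerol backbone of triglyceride, by 1.25 ± 0.15, and Agpat2, an acyltransferase of triglyceride synthesis, by 1.18 ± 0.15. As the mean of its probe sets Gpd1 differed by −0.73 (adjusted p = 0.00444). The exception was Angptl4, a secreted inhibitor of lipoprotein lipase, which rose by 1.22 ± 0.22 (limma adjusted p = 0.0130). It read 9.59, 9.69 and 10.47 in WT 1 to 3 and 11.04, 11.27 and 11.10 in KO 1 to 3. Its call was lost without KO 3 (1.23, adjusted p = 0.0510) and without probe sets that can match several transcripts (0.95, adjusted p = 0.0518). Without KO 3 the list had 5 lower and 0 higher members, and without WT 3 it had 2 higher.

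Among 29 other transcription factors and cofactors of fat cell formation, 7 were lower and 3 higher (against 8.51% and 7.65% of all genes). Their median was −0.32. Ppargc1a, the PPAR-gamma coactivator of mitochondrial genes, fell by 1.71 ± 0.17 (SE), from 8.82, 8.43 and 8.92 in WT 1 to 3 to 6.89, 6.85 and 7.31 in KO 1 to 3. Mlxipl, the glucose-responsive activator of lipid synthesis, fell by 1.6 ± 0.20 and Nr1h3, the oxysterol receptor, by 0.95 ± 0.12. The 3 that rose were Klf5, which is also an epithelial factor, by 1.24 ± 0.18, Stat5a, which also transmits the prolactin signal, by 0.74 ± 0.15, and Tcf7l1, by 0.45 ± 0.11. Klf5 differed by 0.68 with averaged probe sets and by 0.78 without probe sets that can match several transcripts (adjusted p = 0.0217 and 0.0230). Stat5a lost its call without KO 3 (adjusted p = 0.0776) and with the muscle covariate (adjusted p = 0.0584). Tcf7l1 lost it without WT 1, WT 2, WT 3, KO 2 or KO 3 (adjusted p = 0.0877, 0.0629, 0.110, 0.0615 and 0.102) and with averaged probe sets (0.31, adjusted p = 0.0896). The other factors that fell were Klf15, by 1.0 ± 0.19, Ebf2, by 0.80 ± 0.14, Ebf1, by 0.67 ± 0.15, and Zfp423, by 0.55 ± 0.11, the last 3 known for committing precursors to the fat lineage. These 4 were named after their values were seen. Without KO 3, 4 factors were lower and 1 higher.

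Inhibitors of fat cell formation went both ways, with 3 of 16 lower and 2 higher (against 8.51% and 7.65% of all genes). Their median was −0.09. Sox9, which restrains adipogenesis and also marks epithelial progenitors, rose by 1.41 ± 0.14 (SE). Gata3, an inhibitor in preadipocytes and a luminal epithelial factor, rose by 0.82 ± 0.12. Id3, an inhibitor of helix-loop-helix factors, fell by 1.02 ± 0.11. The other 2 lower ones, named after their values were seen, were Wnt5a, a secreted Wnt ligand, by 1.10 ± 0.17, and Gata2 by 0.65 ± 0.13. Sox9, Gata3 and Id3 kept their limma call in the 15 alternatives of the fit, with adjusted p up to 0.0349.

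Other adipokines were lower in 10 of 25 cases and higher in 1 (against 8.51% and 7.65% of all genes), with a median of −0.30. Nrg4, an epidermal growth factor relative secreted by brown fat, fell by 1.29 ± 0.12 (SE), from 8.96, 8.94 and 9.26 in WT 1 to 3 to 7.76, 7.64 and 7.89 in KO 1 to 3. Rarres2, which encodes chemerin, fell by 1.04 ± 0.13. The other lower ones, between −0.68 and −0.42, included the adiponectin relatives C1qtnf12 and C1qtnf9, the resistin relative Retnla and the hormone gene Fgf21, named after their values were seen. The gene that rose was Angptl4, which stands in both lists. Counts of lower members were 3, 5 and 3 without WT 1, WT 2 or WT 3, and 6 and 2 without KO 1 or KO 3, and 5 with the muscle covariate. Without KO 2, 2 were higher, and without KO 3, 0 were.

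Receptors and receptor partners of adipokines were lower in 2 of 16 cases and higher in 0, against 8.51% and 7.65% of all genes. At an unadjusted p under 0.05 the counts were 3 and 3, against 17.3% and 16.3% of all genes. The list median was 0. Gpr1, a chemerin receptor, fell by 0.81 ± 0.15 (limma adjusted p = 0.0134, and 0.0542 without KO 3). C3ar1, a complement receptor, fell by 0.42 ± 0.10 (adjusted p = 0.0315). It lost the call without WT 1, WT 2, WT 3, KO 1 or KO 3 (adjusted p = 0.103, 0.0866, 0.0646, 0.0805 and 0.0978) and with the muscle covariate (0.0854). Lepr, the leptin receptor, differed by −0.38 ± 0.11 without overlap (adjusted p = 0.058). Its probe sets gave unlike sizes: without those that can match several transcripts the difference was −0.98 (adjusted p = 0.0187), and as the mean of its probe sets −0.58 (adjusted p = 0.0116). Lepr also passed with array weights and without KO 2 (adjusted p = 0.0275 and 0.0228). Without KO 2, 4 of the list were lower and 1 higher, and without KO 3, 0 were lower. Without WT 1, WT 2, WT 3 or KO 1, 1 was lower. Adipor1, the other adiponectin receptor, named here beside Adipor2 after its values were seen, read 7.92, 8.0 and 7.89 in WT 1 to 3 and 7.84, 7.73 and 7.77 in KO 1 to 3, a difference of −0.16 ± 0.08 (adjusted p = 0.279).

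Proteins that adipsin works with in the alternative complement pathway were lower in 1 of 6 measured cases and higher in 0 (2 and 0 at an unadjusted p under 0.05), with a median of −0.35. The 1 was Cfi, a protease that inactivates complement fragments, which fell by 0.38 ± 0.10 (limma adjusted p = 0.0413, and 0.0578 to 0.121 in the 9 alternatives that lost it, which include each array left out). Cd55 and Cfb, a membrane inhibitor and the substrate of adipsin, differed by −0.33 ± 0.11 and −0.37 ± 0.16 (adjusted p = 0.103 and 0.182). Cd55 passed with array weights, with averaged probe sets and without KO 2 (adjusted p = 0.0423, 0.0136 and 0.0314). Cfb differed by −0.56 without WT 2 (adjusted p = 0.0317) and −0.54 with the muscle covariate (adjusted p = 0.0461), but by −0.24 without WT 3 (adjusted p = 0.439). Genes for the folding, modification and release of adiponectin were lower in 1 of 6 cases and higher in 1, with a median of 0.32. For both this list and the complement list, the shares over all genes were 8.51% lower and 7.65% higher (17.3% and 16.3% unadjusted). P4hb, a protein disulphide isomerase, rose by 0.51 ± 0.10 (adjusted p = 0.0175, and 0.0548 and 0.0650 without WT 2 or WT 3). Gstk1, which aids the assembly of adiponectin, fell by 0.64 ± 0.15 (adjusted p = 0.0278, and 0.0714, 0.0618, 0.0974 and 0.0659 without WT 1, WT 2, WT 3 or KO 3). Ero1a, an oxidase of the endoplasmic reticulum that promotes adiponectin release, differed by 0.61 ± 0.18 (adjusted p = 0.0671). Without KO 1 it differed by 0.78 (adjusted p = 0.0269), and as the mean of its probe sets by 0.37 (adjusted p = 0.275). Without KO 1, 2 of this list were higher.

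**Figure D4:**
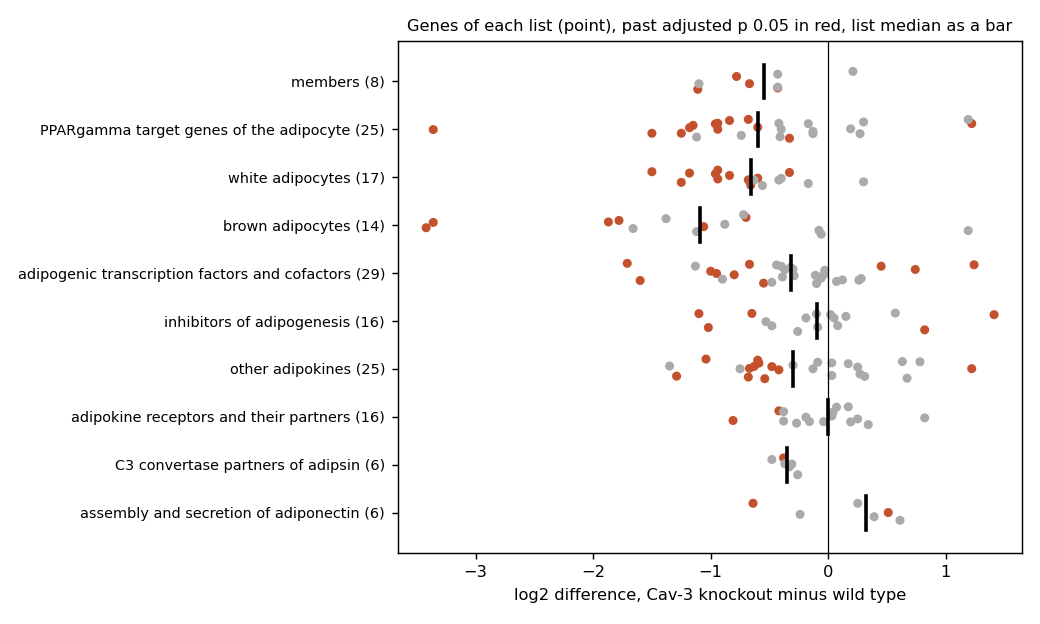
Log2 difference, Cav-3 knockout minus wild type, of each measured gene (point, 1 row per list with its number of genes; red marks adjusted p under 0.05, the black bar is the list median, vertical jitter only separates points). Of the lists drawn, which leave out the markers of cells other than adipocytes, brown adipocyte markers have the lowest median, −1.09, and adiponectin assembly the highest, 0.32; the 8 members have −0.55.

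Pparg and Adipor2 lie on chromosome 6, as does Cav3 itself, and Lep lies on the same chromosome with 599 protein-coding genes between it and Cav3 in the RefSeq order. Between Cav3 and Pparg stand 39 protein-coding genes, of which 38 were measured, with 3 lower and 4 higher (18.4%, against 16.2% of all genes) and a median of 0. The lower ones were Cidec, a lipid droplet protein of white fat, which fell by 0.68 ± 0.11 (SE), Creld1, by 0.62 ± 0.09, and Hrh1, a histamine receptor, by 0.55 ± 0.09. As the mean of its probe sets Hrh1 differed by −0.28 (adjusted p = 0.0448). The higher ones were Srgap3, which rose by 0.96 ± 0.17, Vgll4 by 0.64 ± 0.15, Sec13, a coat protein of secretory vesicles, by 0.54 ± 0.12, and Brpf1 by 0.39 ± 0.10. Vgll4, Sec13 and Brpf1 each lost the call in at least 4 alternatives, at adjusted p up to 0.109, 0.0875 and 0.136. Of the 10 genes beyond Pparg 5 were measured, and Mkrn2 fell by 0.42 ± 0.10 (limma adjusted p = 0.0313, up to 0.101 in the 8 alternatives that lost it). From Pparg on to Adipor2, 33 of 45 protein-coding genes were measured, with 5 lower and 4 higher (27.3%), among them Zfp239, named after its value was seen, which rose by 1.77 ± 0.15. Over the whole chromosome 21% of 885 measured genes passed. Calls lay in both directions on either side of Pparg. The labels do not name the strain in which the Cav3 mutation was made. An effect of a stretch of another strain around the mutated gene on Pparg or Adipor2, or on probe binding there, cannot be told apart from the genotype in this design.

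**Figure D5:**
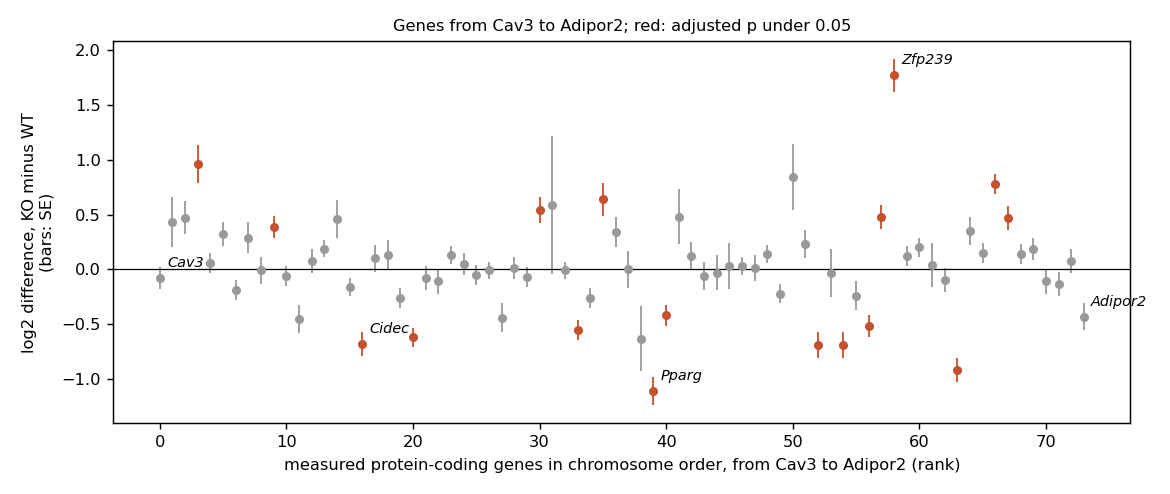
Log2 difference, Cav-3 knockout minus wild type, with its SE, of the measured protein-coding genes from Cav3 to Adipor2 in chromosome order (x axis is rank, not distance); red marks adjusted p under 0.05. Pparg, at −1.11, is the lowest point, and genes past the threshold lie on both sides of 0.

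For the 4 members whose arrays spanned more than 1 log2 unit, the genes with the most similar profile were found by the mean absolute difference over the 6 arrays, after each gene was centred on its own mean. The genes named are the closest of all measured genes over only 6 arrays, so they lie near by selection. Shared regulation was not tested. Nearest to Pparg were Dkk2, a secreted regulator of Wnt signalling, Hoxc8, a homeobox factor, and Lactb2, each at 0.06. Their own differences between the groups were −1.04, −1.05 and −1.16. Hoxc8 read 10.24, 10.50 and 10.61 in WT 1 to 3 and 9.66, 9.35 and 9.20 in KO 1 to 3. Nearest to Cebpa were Fcgrt, the neonatal Fc receptor, at 0.03, Mxra8 at 0.04 and Aldh2, an aldehyde dehydrogenase, at 0.06. Nearest to Retn were Mavs at 0.03 and Gpcpd1 and Cisd1, an iron-sulphur protein of the mitochondrial outer membrane, at 0.05. Lep had no gene as close: Olfml1, Strip2 and Nol3 lay at 0.18, 0.19 and 0.22, against its span of 2.11.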

How the data were processed

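Messenger RNA of 3 wild-type and 3 Cav-3 knockout mammary gland samples was measured on single-channel Affymetrix arrays, 1 per sample. The deposited values are log2 values, 1 per probe set, which the authors obtained by RMA, per the submitters' processing notes (background correction, quantile normalization, summary of a set's probes); software and build: not given in the sources used here. RMA compresses folds of dim sets. Of 45101 probe sets 64 controls were left out. Names came from the platform annotation (34945 sets with 1 symbol, 932 with several, 9160 unnamed here), updated through RefSeq (GRCm38.p6; 204 unmatched).

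The groups were compared with limma 3.58.1 (R 4.3.3, lmFit and eBayes, two-sided, genotype alone, Benjamini-Hochberg over 45037 sets, threshold 0.05), with 95% intervals from the moderated fit. The fit was tested on simulated data. Relative values were tested by exact permutation over the 6 arrays. The number of arrays limits the precision. The members and lists were chosen with earlier results of these data known. Unless said otherwise, named genes were all members, the 3 of each list with the smallest p, list members past the threshold against most of their list, neighbours of Cav3 and Pparg past it, and the 3 most similar profiles. The alternatives were cyclic loess, median centring, dim probe sets left out, an intensity-trend robust prior, array weights, averaged probe sets per gene, probe sets that can match several transcripts left out, the mean of the skeletal muscle markers as a covariate, each array left out, and the replicate block. The text names only some list members, and those without a named probe set were not analysed here. Figures were drawn with matplotlib 3.10.9.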

Additional observations from a re-analysis of the deposited data

How the results depend on the processing

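The signs of the differences of the 8 members held in the 15 alternatives of the fit (14 for Pparg, whose probe set can match several transcripts). Without such probe sets Fabp4 had no clear direction, at −0.01 (limma adjusted p = 0.983). Pparg and Retn kept their call in all of theirs, Cebpb and Fabp4 passed in none, and Adipor2 passed in 6, at adjusted p from 0.00499 to 0.0499. The count of lower members was 2 at a threshold of 0.01, 7 at 0.1, and 2 to 6 with 1 array left out. Probe sets past the threshold numbered 3603 with averaged probe sets, where fewer features were tested, and 2218 to 5987 with 1 array left out. Of the 122 genes of the 7 other lists 36 were lower and 7 higher, and with 1 array left out 13 to 38 were lower and 4 to 9 higher. Without probe sets that can match several transcripts 4 were higher, of 110 measured. Over all genes the shares lower and higher were 8.51% and 7.65% in the main fit. With 1 array left out these shares ran from 3.33% to 8.04% lower and from 3.46% to 9.44% higher. The relative difference of Adipor2 was 0.04 with averaged probe sets. The cause of these changes was not tested. The labels do not say whether the replicate numbers pair the arrays. Deviations from the group means correlated at −0.0542, 0.1851 and −0.0179 for numbers 1 to 3. Arrays of unlike number gave −0.1945 to 0.2596. With 3 arrays per group these correlations cannot settle the pairing. With the replicate block 5352 probe sets and 3 members passed, and Adipoq had adjusted p = 0.0503. C3ar1 and Cfi had 0.0569 and 0.0803 with the block. With 1 array left out, the fit assumes the remaining spread for both groups, and 3 arrays per group limit what small folds can show.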

Other observations

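The 9 genes that passed between Pparg and Adipor2 on chromosome 6 included 4 zinc finger genes named Zfp. Zfp239 rose by 1.77 ± 0.15 (SE, limma adjusted p = 0.00106), more than any other gene between Cav3 and Adipor2 that passed. Zfp637, Zfp248 and Zfp9, further zinc finger genes of this stretch, rose by 0.48 ± 0.11, 0.78 ± 0.09 and 0.47 ± 0.11. Zfp248 was dim, at a mean of 3.94 in wild type and 4.73 in knockout, within the 2.04 to 6.16 of Y-linked probe sets. Zfp239 and Zfp9 also lay within that range in wild type, at means of 6.15 and 6.11. Their knockout means, 7.92 and 6.58, lay above it. The genes that fell were Csgalnact2, by 0.92 ± 0.11, Alox5, a leukotriene-forming lipoxygenase, by 0.69 ± 0.12, Depp1 by 0.69 ± 0.12, the chemokine gene Cxcl12 by 0.52 ± 0.10, and Mkrn2. Apart from Mkrn2, the genes of this stretch were not followed in the alternatives of the fit.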
